A study of Mus musculus with 18 samples.

Results

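The regions described here lie at the 2 ends of the mouse autosomes. All peaks of methylated DNA from 18 libraries were merged wherever they shared at least 1 base. A merged region was kept when it lay on chromosomes 1 to 19 within the last 2 Mb of the GRCm38 chromosome length (distal) or within the first 2 Mb after position 3000000 (centromere-near). This gave 4249 end regions, 1864 distal and 2385 centromere-near, of 148111 merged regions on these 19 chromosomes and 152196 in all. The other 143862 regions on the 19 chromosomes form the interior.

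The libraries came from male C57BL/6JR mice aged 12 weeks, with 3 mice in each of 6 groups. In 5 groups the left anterior descending coronary artery was tied off to cause a myocardial infarction (MI), and heart tissue was taken after 10 min in the earliest group, after 1 h, 6 h and 24 h in the next 3, and after 72 h in the last. Sham mice had the same surgery with the suture passed but not tied. The labels give myocardial tissue as the source and cardiomyocytes as the cell type, and name no step that isolated these cells. A peak list holds no expression, so the cell type could not be checked against markers. In such tissue a change in cell makeup and a change of methylation within cells cannot be told apart.

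Methylated DNA immunoprecipitation (MeDIP) pulls down sheared DNA with an antibody against 5-methylcytosine, and peaks mark stretches where the pulled-down fragments pile up. It responds both to how much of the DNA is methylated and to how many CpG dinucleotides a stretch holds. Mouse autosomes have the centromere close to one end: the assembled sequence begins beyond an unassembled block next to the centromere and runs to the telomere at the other end. DNA next to centromeres and telomeres is rich in repeated and duplicated sequence, and in mammals much of it carries dense cytosine methylation.

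The windows below show what the end regions look like at gene starts. They are RefSeq promoter windows, 300 bases on GRCm38.p6, written 5′ to 3′ on the strand of the gene, with every CpG in capitals. The first 3 are the distal windows touched by a peak in the most libraries, and the next 3 are their centromere-near counterparts. The last 2 touched no peak in any library. They belong to Tnni3, which encodes cardiac troponin I, and to Dnmt3a, which encodes a de novo DNA methyltransferase.
3110070M22Rik, chr13:119488335-119488634, minus strand: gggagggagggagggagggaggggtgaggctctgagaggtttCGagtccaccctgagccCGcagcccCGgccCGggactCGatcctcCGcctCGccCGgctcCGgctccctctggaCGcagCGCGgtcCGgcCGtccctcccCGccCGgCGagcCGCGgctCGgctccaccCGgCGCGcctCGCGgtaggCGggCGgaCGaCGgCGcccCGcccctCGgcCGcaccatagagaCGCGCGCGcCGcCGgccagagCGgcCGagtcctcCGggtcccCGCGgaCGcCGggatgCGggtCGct
Gm46490, chr14:123631841-123632140, minus strand: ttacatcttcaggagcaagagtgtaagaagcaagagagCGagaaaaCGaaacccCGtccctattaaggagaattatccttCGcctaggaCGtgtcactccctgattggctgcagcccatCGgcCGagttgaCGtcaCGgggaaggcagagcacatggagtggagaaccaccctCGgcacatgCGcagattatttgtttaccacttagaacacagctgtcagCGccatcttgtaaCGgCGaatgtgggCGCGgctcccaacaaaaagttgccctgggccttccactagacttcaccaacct
LOC108167564, chr8:128753485-128753784, minus strand: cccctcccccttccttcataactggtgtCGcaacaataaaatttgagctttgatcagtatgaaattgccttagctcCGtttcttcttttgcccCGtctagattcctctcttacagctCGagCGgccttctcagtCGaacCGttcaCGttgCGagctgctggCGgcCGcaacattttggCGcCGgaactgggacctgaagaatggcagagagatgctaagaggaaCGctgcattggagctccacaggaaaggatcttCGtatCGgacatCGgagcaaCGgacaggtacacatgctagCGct
Gm45957, chr9:4138496-4138795, plus strand: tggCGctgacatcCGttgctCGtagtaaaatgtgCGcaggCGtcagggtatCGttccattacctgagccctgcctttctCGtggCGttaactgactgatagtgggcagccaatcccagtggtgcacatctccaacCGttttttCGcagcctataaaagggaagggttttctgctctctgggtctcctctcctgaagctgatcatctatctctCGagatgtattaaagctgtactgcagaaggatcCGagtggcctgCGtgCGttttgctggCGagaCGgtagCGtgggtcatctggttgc
Cd209c, chr8:3946814-3947113, minus strand: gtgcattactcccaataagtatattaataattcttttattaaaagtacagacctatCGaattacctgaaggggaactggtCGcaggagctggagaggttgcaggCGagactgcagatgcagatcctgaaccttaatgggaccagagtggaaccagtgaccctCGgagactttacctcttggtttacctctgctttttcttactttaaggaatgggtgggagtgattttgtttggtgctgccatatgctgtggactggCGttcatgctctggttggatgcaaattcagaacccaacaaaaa
Eps8l1, chr7:4460447-4460746, plus strand: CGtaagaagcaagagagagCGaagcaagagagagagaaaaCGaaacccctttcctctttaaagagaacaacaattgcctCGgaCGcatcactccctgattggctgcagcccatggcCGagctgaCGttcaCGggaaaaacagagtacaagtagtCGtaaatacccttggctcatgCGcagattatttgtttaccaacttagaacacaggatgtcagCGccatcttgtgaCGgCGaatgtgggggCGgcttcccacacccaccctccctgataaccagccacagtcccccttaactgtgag
Tnni3, chr7:4522479-4522778, minus strand: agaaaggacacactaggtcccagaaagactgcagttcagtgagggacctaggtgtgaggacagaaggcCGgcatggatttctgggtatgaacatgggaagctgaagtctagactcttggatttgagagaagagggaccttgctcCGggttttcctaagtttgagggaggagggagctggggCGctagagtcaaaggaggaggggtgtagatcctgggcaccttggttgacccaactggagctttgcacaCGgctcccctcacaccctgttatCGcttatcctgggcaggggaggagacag
Dnmt3a, chr12:3806730-3807029, plus strand: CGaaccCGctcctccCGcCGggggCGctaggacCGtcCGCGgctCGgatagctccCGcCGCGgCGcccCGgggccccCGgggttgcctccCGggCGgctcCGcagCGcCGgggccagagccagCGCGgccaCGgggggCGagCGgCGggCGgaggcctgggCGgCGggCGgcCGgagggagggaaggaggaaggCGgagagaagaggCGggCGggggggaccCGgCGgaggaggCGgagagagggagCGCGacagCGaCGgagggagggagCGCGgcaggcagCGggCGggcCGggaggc

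The windows that carried peaks differed widely in CpG content. The 3110070M22Rik window, at the start of a long non-coding RNA, held 48 CpGs and was touched in 18 of 18 libraries. Its peaks scored between 309 and 852, with a median of 475. The Gm46490 window held 16 CpGs and was touched in 18 libraries (scores 70.7 to 266, median 105). The LOC108167564 window held 19 CpGs and was touched in 17 libraries (scores 56.4 to 155, median 115). Both belong to long non-coding RNAs. At the centromere-near end the Gm45957 window, again of a long non-coding RNA, held 17 CpGs and was touched in 18 libraries (scores 92.3 to 227, median 139). The Cd209c window held only 5 CpGs, as many as the untouched Tnni3 window, and was touched in 18 libraries (scores 68.8 to 123, median 95.5). Cd209c encodes a C-type lectin receptor. The Eps8l1 window held 14 CpGs and was touched in 16 libraries (scores 50.8 to 140, median 82.1). The untouched Dnmt3a window held 46 CpGs, close to the number in the 3110070M22Rik window, and the other 2 Dnmt3a windows (47 and 18 CpGs) were untouched as well.

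The Gm46490 and Eps8l1 windows, on different chromosomes and at opposite chromosome ends, share the run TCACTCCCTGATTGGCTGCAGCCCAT of 26 bases. Searched on both strands, it stands in 15 of all promoter windows, or 0.0478%. Of these 15 windows 8 (53.3%) were touched by a peak in at least 9 libraries, against 2.004% of the windows without it. Among interior windows alone 6 of 13 that carried the run (46.2%) were touched in at least 9 libraries, against 2.05% of those without it. The run was picked after the peaks in these windows were seen, so these shares are a description.

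Each deposited list held between 34255 and 60653 peaks with a score of at least 50. The scale of the score is not stated, so it was compared mainly between parts of the same list. No pair of lists shared more than 0.00712% of peaks with identical start and end. The first peak began at position 3001076, and the last peak of a chromosome lay between 105 and 239 kb before its end.

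Peaks were sparser at distal ends and denser near centromeres than in the interior. Distal windows held between 11.3 and 20.6 peaks per Mb in a library, with a median of 15.9. Interior sequence held between 13.9 and 24.6, with a median of 19.1. Centromere-near windows held between 16.6 and 27.8, with a median of 22.5. The ranges overlapped because list lengths differed, but within each library the order was the same.

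Divided by the interior density of the same library, distal density was 0.827 ± 0.0225 (SD, n = 18), between 0.792 and 0.862. It was below the interior in 18 of 18 libraries, a log2 ratio of -0.27 ± 0.04 (two-sided sign-flip permutation p = 1e-05, the smallest that 100000 resamples can give). The centromere-near ratio was 1.16 ± 0.038 (SD, n = 18), between 1.12 and 1.26. It was above the interior in 18 of 18 libraries, a log2 ratio of 0.22 ± 0.05 (sign-flip permutation p = 1e-05). The test covers the spread between mice, which share a genome, and not the spread between chromosomes. No list held a peak in the last 0.1 Mb of any of the 19 chromosomes. With this stretch taken out of the distal length, the distal fold was 0.870.

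Low density was seen in the outermost 2 Mb of the distal end, and density was high just inside it. From 0 to 1 Mb from the chromosome end the ratio to the interior was 0.7996 ± 0.0284, and from 1 to 2 Mb it was 0.854 ± 0.0403, below 1 in all 18 libraries for both. The band from 0 to 1 Mb includes the last 0.1 Mb, where no list held a peak. Its ratio was not computed without that stretch, so these 2 bands cannot be ranked. From 2 to 3 Mb the ratio was 1.23 ± 0.0602, and from 3 to 5 Mb 1.38 ± 0.0733. From 5 to 10 Mb it reached 1.504 ± 0.0527, above the interior on 19 of 19 chromosomes. At the centromere-near end the ratio started at 1.18 ± 0.0493, was 1.14 ± 0.0458 from 1 to 2 Mb and fell to 0.961 ± 0.0245 from 5 to 10 Mb. That last band was uneven, with 24.2 peaks per Mb from 5.5 to 5.75 Mb and 14.6 from 7.5 to 7.75 Mb. Sequence beyond 2 Mb belongs to the interior as defined here, and the profile out to 10 Mb was drawn after the densities had been seen.

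The limit at 2 Mb was not a sharp step at either end. At the distal end the density was 14.5 peaks per Mb between 1.5 and 1.75 Mb, 20.3 between 1.75 and 2 Mb, and 20.6 between 2 and 2.25 Mb. At the centromere-near end it was 21.5, 24.6 and 21.8 in the matching steps.

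**Figure D1:**
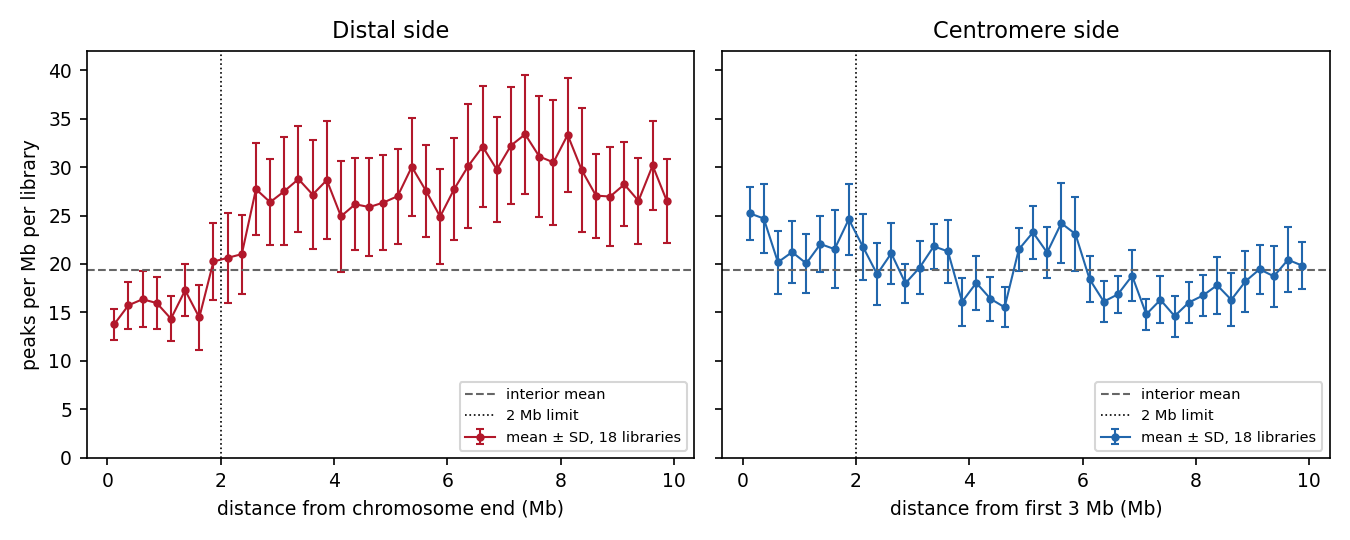
Peak density (peaks per Mb, mean over 18 libraries) in steps of 0.25 Mb, plotted against distance from the distal chromosome end and from position 3000000. Distal density starts below the interior mean and lies above it from 2 to 10 Mb. Centromere-near density starts above the interior mean and then falls and rises unevenly. It is 15.5 between 4.5 and 4.75 Mb and 24.2 between 5.5 and 5.75 Mb.

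Taken over the whole 2 Mb window, the distal deficit lay in weak peaks. For peaks with a score below 100 the distal density was 0.776 times that of the interior, lower in 18 of 18 libraries. For peaks with a score of at least 100 it was 1.02 times, higher in 11 libraries and lower in 7. The difference between the 2 classes was 0.39 ± 0.10 on the log2 scale in 18 of 18 libraries (sign-flip permutation, p adjusted over 4 such contrasts = 1.33e-05). The strong peaks were not even along the window. Their ratio to the interior was 1.18 ± 0.103 from 0 to 1 Mb and 0.861 ± 0.0576 from 1 to 2 Mb. In the inner part strong peaks were thus also sparse. Whether a distal peak lay inside a gene made no detectable difference, with ratios of 0.831 inside genes and 0.829 outside (permutation p = 0.844 for the difference).

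The centromere-near excess was larger for strong peaks and outside genes. Peaks of score 100 or more were 1.53 times as dense as in the interior (6.30 against 4.17 per Mb). Weaker peaks were 1.06 times as dense (16.1 against 15.2 per Mb). Both ratios were above 1 in 18 of 18 libraries. The difference was 0.52 ± 0.10 on the log2 scale, in 18 of 18 libraries. Outside genes the ratio was 1.33 in 18 of 18 libraries, and inside genes it was 1.03, above 1 in 15 libraries and below in 3. The difference between outside and inside was 0.37 ± 0.05 on the log2 scale (adjusted p = 1.33e-05 by the sign-flip permutation test).

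Neither end was poor in genes. RefSeq lists 12.6 protein-coding genes per Mb in the distal windows, 11.3 in the centromere-near windows and 8.48 in the interior. Genes of any kind cover 47.5%, 48.3% and 49.4% of the sequence. Pseudogenes were more frequent near centromeres, at 5.95 per Mb, than at distal ends (3.58) or in the interior (3.66).

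Chromosomes differed far more than libraries. Distal density was lower than the interior of the same chromosome on 14 of 19 chromosomes, and on 11 of them in every library. On the other 5 it was higher, in every library on 3. The densest distal end was that of chromosome 11, with 32.9 ± 5.81 peaks per Mb (SD, n = 18) against 20.9 in its interior, followed by chromosome 4 (28.9 ± 7.02) and chromosome 5 (27.1 ± 4.79). Chromosome 11 carries 65 protein-coding genes in that window and chromosome 5 only 12. The sparsest were chromosome 3 (7.67 ± 1.18), chromosome 18 (9 ± 1.47) and chromosome 19 (9.33 ± 1.67).

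Centromere-near density exceeded the interior of the same chromosome on 13 of 19 chromosomes, on 9 of them in every library. It was lower on 6, in every library on 3. The highest values were those of chromosome 5 (30.2 ± 3.43), chromosome 8 (28.7 ± 4.72) and chromosome 19 (28.7 ± 6.16). Chromosome 14 had the lowest, 9.83 ± 1.41 against 17.4 in its interior, followed by chromosome 1 (13.2 ± 2.16) and chromosome 3 (15.6 ± 1.76). Chromosome 19 had both one of the sparsest distal ends and one of the densest centromere-near ends. With each left out in turn, the distal fold lay between 0.781 and 0.851 and the centromere-near fold between 1.14 and 1.19.

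**Figure D2:**
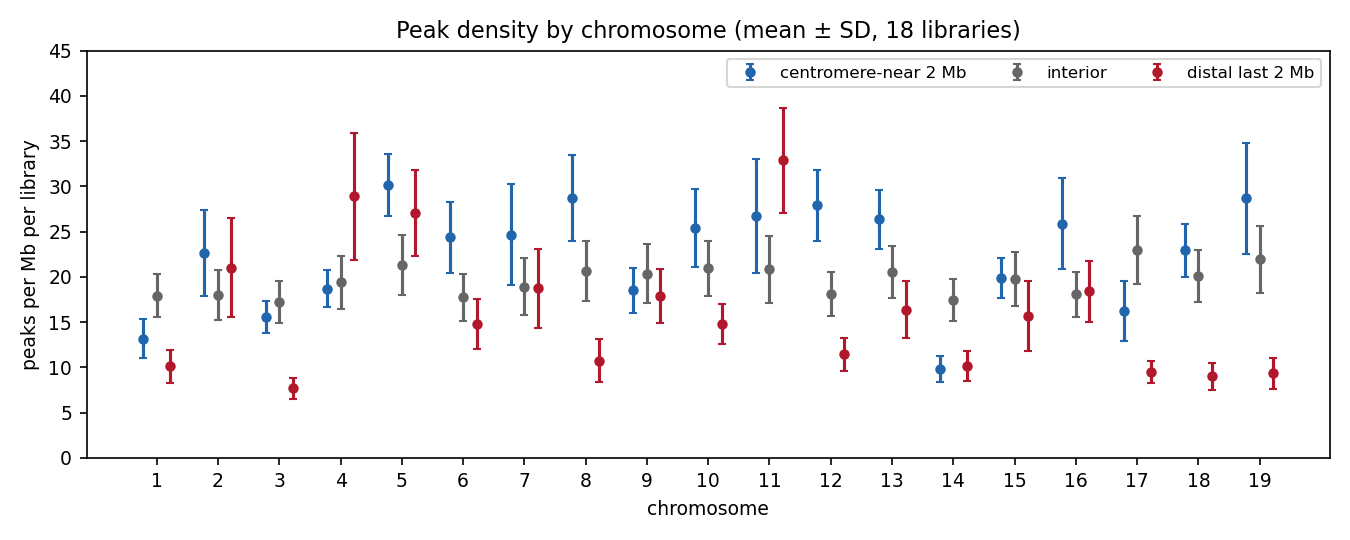
Peak density (peaks per Mb, mean over 18 libraries with SD) of the distal window, the centromere-near window and the interior of each of 19 chromosomes. Distal density is below the interior on 14 chromosomes and centromere-near density above it on 13.

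Peaks in the 2 Mb windows of both ends scored higher than interior peaks. The median score of a library was 3.74 ± 1.28 higher in distal windows than in its interior (range 1.80 to 6.74, n = 18). Near centromeres it was 4.75 ± 1.07 higher (range 2.41 to 6.84). Both differences were positive in 18 of 18 libraries (sign-flip permutation p = 1e-05 for each). The mean of the library medians was 75.5 in distal windows, 76.5 in centromere-near windows and 71.8 in the interior.

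Strong peaks made up 26.0% ± 2.52 of distal peaks, 27.8% ± 2.68 of centromere-near peaks and 21.2% ± 2.67 of interior peaks (score of at least 100, SD, n = 18). Each end exceeded the interior in 18 of 18 libraries (adjusted p = 1.5e-05 over 6 sign-flip permutation tests). Peaks covered 1.76% of distal sequence, 2.54% of centromere-near sequence and 2.07% of the interior. Median peak width was 19.1 bases greater near centromeres, in 17 of 18 libraries (adjusted permutation p = 2.4e-05). At distal ends it differed from the interior by 2.06 bases (permutation p = 0.498).

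Regions near centromeres recurred more often than interior regions. A peak in at least 9 of 18 libraries was found for 724 of 2385 centromere-near regions, or 30.4% (exact 95% Clopper-Pearson interval 28.5 to 32.2). The share was 26.7% for distal regions (497 of 1864, interval 24.7 to 28.7) and 25.1% for the interior (24.9 to 25.3). The centromere-near interval lay above that of the interior, and the distal interval overlapped it. All 18 libraries had a peak in 190 centromere-near regions (7.97%) and 121 distal regions (6.49%), against 5.02% of interior regions. Recurrence rose with score at both ends: 50.6% of the centromere-near peaks scoring 50 to 75 lay in regions found in at least 9 libraries, and 95.04% of those scoring 100 or more. The interior gave 45.9% and 93.6%. Merged regions are not independent of each other, and the intervals cover counting error only.

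**Figure D3:**
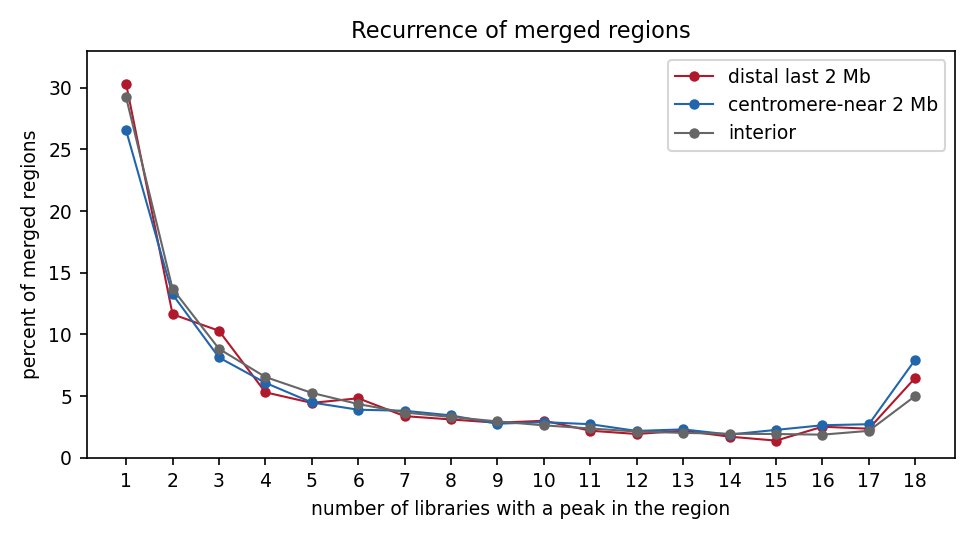
Share of merged regions (percent) by the number of libraries, from 1 to 18, in which a peak was called, for distal, centromere-near and interior regions. Centromere-near regions have the lowest share found in 1 library, 26.5%, and the highest share found in all 18, 7.97%.

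The highest-scoring end regions were found in every library. At the distal end the top region was chr9:124256026-124258567, with scores from 1678 to 2927 and a median of 2346. It lies outside genes, 9316 bases from Gm39469. The next, chr13:119487697-119493550, spans the start of 3110070M22Rik and part of Tmem267 and scored 309 to 852 (median 475); it holds the CpG-dense promoter window printed above. A neighbouring region in Tmem267, chr13:119493694-119495644, scored 122 to 560 (median 335). There the 72 h libraries scored 560, 506 and 486, all above the 24 h libraries (345, 325 and 226). The sham libraries scored 412, 496 and 269, and these scores were not tested. The fifth, chr17:93148400-93152017, is 42323 bases from Gm32465 and scored 116 to 343 (median 226).

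The region chr9:123461527-123462884 lies within Lars2, which encodes the mitochondrial leucyl-tRNA synthetase, and varied most, relative to its mean, among these 5 distal regions. It scored 616, 431 and 317 in the sham libraries and 177, 191 and 260 at 24 h. At 72 h it scored 619, 635 and 469. The 24 h libraries all lay below the sham libraries and below the 72 h libraries. The other times spread widely: 375, 346 and 357 at 10 min, 649, 455 and 215 at 1 h, and 229, 824 and 180 at 6 h. Scores as low as those at 24 h thus also occurred at 1 h and 6 h. Groups of 3 cannot give an exact p below 0.1, and the scores were not tested.

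Near centromeres the top region, chr12:3109060-3110927, scored 1223 to 2361 (median 1680). It stands 53851 bases from its nearest gene, Gm48310. The region chr11:3149185-3151664 lies within Sfi1 and Gm11400 and scored 1049 to 2031 (median 1618). A second region in Sfi1, chr11:3188457-3196138, scored 92.4 to 596 (median 382). Sfi1 encodes a centrin-binding protein of the centrosome. The remaining 2 were chr4:3089033-3093201, which is 10497 bases from Vmn1r-ps2 and scored 281 to 523 (median 443), and chr8:4686705-4688503 within Gm6410 (230 to 456, median 341). A mean score of at least 200 was reached by 20 centromere-near regions (0.839%) and 7 distal regions (0.376%), against 0.225% of interior regions. All 27 of these end regions had a peak in 18 libraries.

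**Figure D4:**
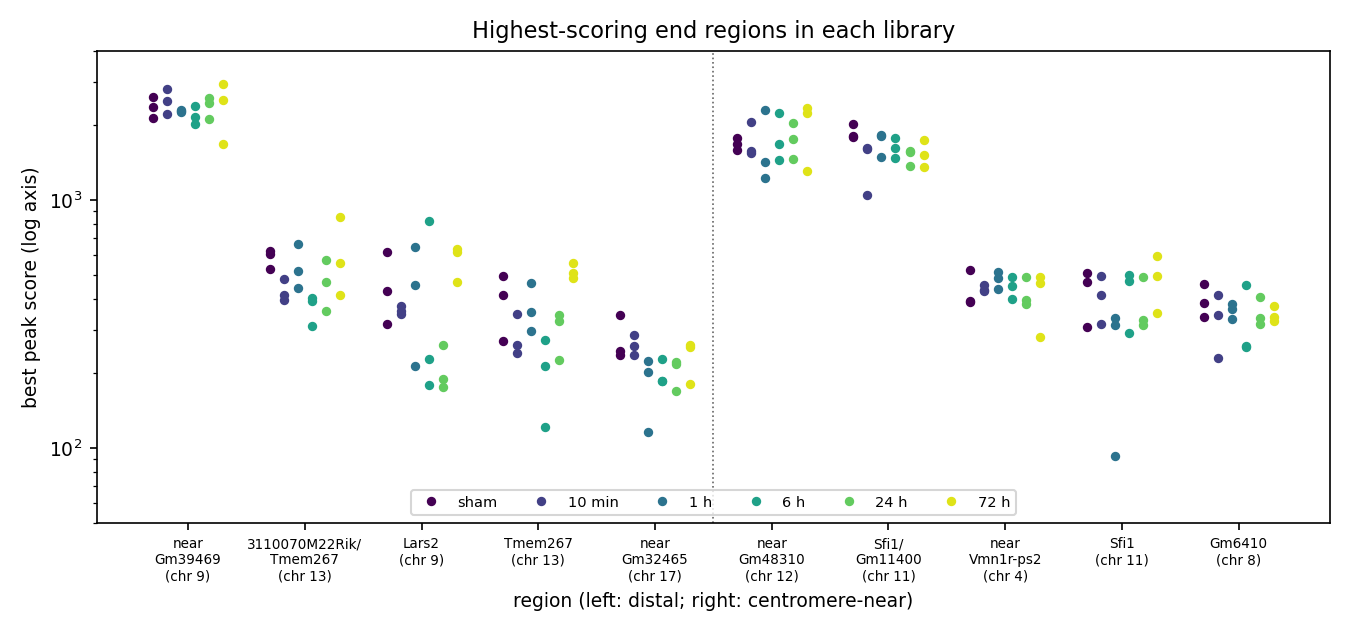
Score of the best peak in each of 18 libraries (log axis) for the 5 highest-scoring distal regions (left) and the 5 highest-scoring centromere-near regions (right), coloured by group. In most regions the groups overlap. In Lars2 the 24 h libraries are all at or below 260 and the 72 h libraries all at or above 469. In the region within Tmem267 alone, the 24 h libraries are all at or below 345.01 and the 72 h libraries all at or above 486.

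Promoter windows were seldom touched by a peak, at the ends as in the interior. In a library 1.61% ± 0.623 of 654 distal windows were touched, 2.16% ± 0.794 of 619 centromere-near windows, and 2.65% ± 0.444 of 30123 interior windows (SD, n = 18). Windows dense in CpG (GC above 50%, observed over expected CpG above 0.6) were touched in 1.58%, 0.892% and 0.806% of cases. The remaining windows were touched in 1.62%, 2.85% and 3.59%. Few windows lay behind the distal CpG-dense share: 240 of 246 were untouched in every library, and 4 were touched in at least 9. Differences between these shares were not tested.

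Protein-coding genes at the ends were read with 2000 bases on either side. A peak lay in such a gene in a median of 4 libraries at distal ends, 8 near centromeres and 9 in the interior. No library had a peak in 31.3% of 486 distal genes, 23.0% of 435 centromere-near genes and 21.6% of 19740 interior genes. Longer genes have more room for a peak, and the median span was 11.64 kb, 16.03 kb and 17.68 kb.

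Genes of chemokine receptors, which guide leukocytes into injured tissue, lie at the distal end of chromosome 9. Ccr1, Ccr2, Ccr3, Ccr9 and Cxcr6 had no peak in any library, and Xcr1 had a peak in 1. Across all coding genes at both ends 27.4% had no peak, and at distal ends alone 31.3%.

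Of 5 fibroblast growth factor genes, Fgf3 and Fgf4 had no peak and Fgf10 had a peak in 1 library. Fgf15, which encodes the intestinal hormone that restrains bile acid synthesis, had one in 6 libraries. Fgf14, a regulator of voltage-gated sodium channels that spans 703 kb, had peaks in 18 libraries. Its most recurrent region, chr14:123997062-124000880, scored 124 to 232 (median 186). Of 3 cytokine genes of the interleukin-6 family, Lif had a peak in 16 libraries, and Osm and Clcf1 in 1 each. The Lif region, chr11:4264065-4265602, scored 54.5 to 126.

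Of 11 genes of muscle and fuel use, each had a peak in at least 3 libraries and 8 (72.7%) in at least 9. Of all protein-coding genes at the 2 ends, 41.4% had a peak in at least 9 libraries. Near centromeres, where all genes of this list but Fasn lie, the share was 47.4%. The median span of the list was 20.2 kb, against 14.2 kb for all of these genes. Insr, the insulin receptor gene, and Oxct1, which encodes the ketone-using enzyme SCOT, had peaks in 18 libraries. Pcx (pyruvate carboxylase) had them in 17, Srl (sarcalumenin) in 15 and Tnnt1 (slow skeletal troponin T) in 14. Cpt1a, whose enzyme admits long-chain fatty acids to mitochondria, and Ndufs8 of respiratory complex I had them in 10. Actn3 had them in 9, Fasn (fatty acid synthase) in 6 and Tnni3 in 3. Grk2, a kinase that desensitises beta-adrenergic receptors, had a peak in 8: in 3 of 3 libraries at 1 h and 72 h, in 0 of 3 at 10 min and 6 h, and in 1 of 3 in sham and at 24 h. All 8 scores lay between 51.8 and 88.6, close to the minimum of 50.

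Of 8 chromatin genes 6 had a peak in at least 9 libraries, against 41.4% of coding genes at the ends. All 8 but Rtel1 lie near centromeres, where the share of coding genes was 47.4%. These are long genes, with a median span of 98.4 kb. Dnmt3a, Kdm2a and Arid1b had peaks in 18, Ncoa1 in 17, Asxl2 in 16 and Crebbp in 12. The Arid1b region found in all 18 libraries, chr17:5200608-5202003, lies beyond the window, in the interior. Rtel1, a helicase that maintains telomeres, had a peak in 8, and Suv39h2, a histone H3 lysine methyltransferase of heterochromatin, in 0. In Dnmt3a, where no promoter window was touched, the most recurrent region was chr12:3828974-3830311 within the gene. It was found in 16 libraries with scores from 52.4 to 148.

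Of 9 vessel and matrix genes 4 (44.4%) had no peak, against 27.4% of coding genes at the 2 ends: Itgb1, Sox17, Sox18 and Cd34. This list holds genes of both ends, where the shares were 31.3% (distal) and 23.0% (centromere-near). Lama5, a laminin chain of basement membranes, had peaks in 17 libraries. Agrn and Col1a2, which encodes a chain of type I collagen, had them in 15 each, Krit1 in 7 and Nrp1 in 4.

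No difference between groups was detected in the share of peaks at either end. In sham libraries 1.281%, 1.2999% and 1.302% of peaks on the 19 chromosomes were distal, a mean of 1.29% ± 0.0115 (SD, n = 3, as for each group). The 10 min libraries averaged 1.32% ± 0.0493 and the 1 h libraries 1.27% ± 0.0114, the lowest mean. Later libraries averaged 1.32% ± 0.039 (6 h), 1.32% ± 0.0211 (24 h) and 1.31% ± 0.0565 (72 h). Differences between the 6 groups made up 0.260 of the variance between libraries (permutation p = 0.532, adjusted 0.845 over the 2 ends). The 15 MI libraries exceeded sham by 0.0142 percentage points (exact permutation p = 0.543, adjusted 0.543; the smallest possible is 0.00123).

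Centromere-near peaks made up 1.79%, 1.80% and 1.99% of the sham lists, a mean of 1.86% ± 0.115. The 10 min libraries averaged 1.85% ± 0.0549 and the 1 h libraries 1.85% ± 0.0736. Later libraries averaged 1.83% ± 0.0497 (6 h), 1.82% ± 0.0309 (24 h) and 1.80% ± 0.0133 (72 h). Here the groups made up 0.149 of the variance (adjusted permutation p = 0.845). MI minus sham was -0.0303 percentage points (exact permutation p = 0.455, adjusted 0.543), and 0.0359 without sham replicate 3, the library at 1.99%.

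**Figure D5:**
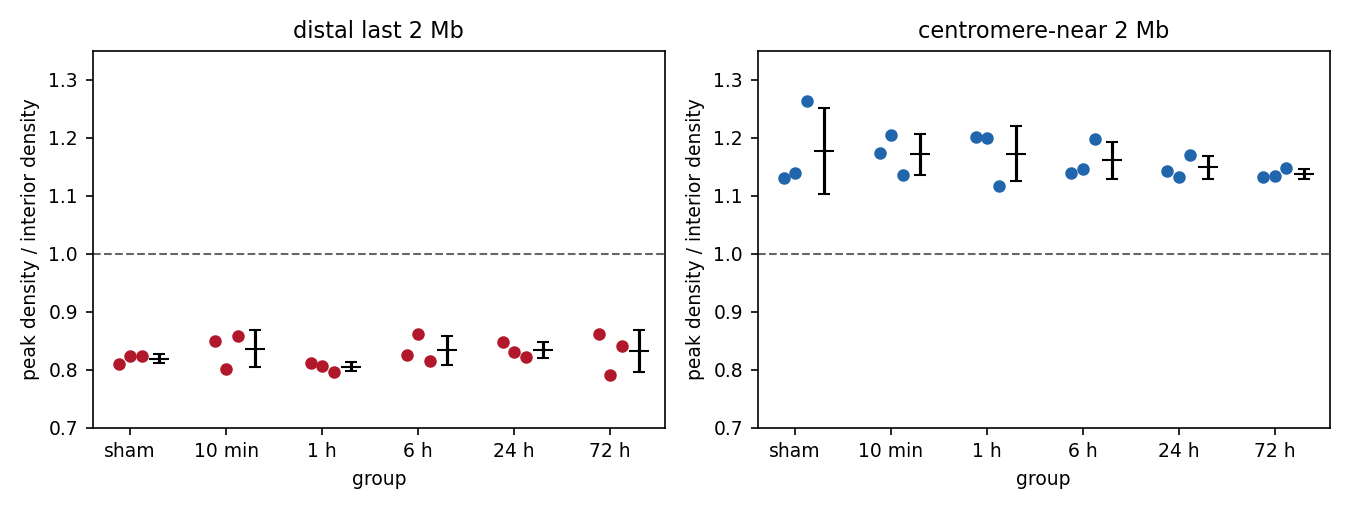
Peak density of each library in distal and centromere-near windows divided by that of its own interior, by group (3 libraries each). Every distal value is below 1, between 0.792 and 0.862, and every centromere-near value above 1, between 1.12 and 1.26, and the groups overlap.

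The centromere-near share was lower in longer lists. Over 18 libraries it correlated with list length at Pearson r = -0.525 (permutation p = 0.0255, adjusted 0.0510 over 2 relations) and Spearman rho = -0.525 (p = 0.0266, adjusted 0.0533). Without the 2 libraries farthest from the median length r was -0.462 (permutation p = 0.0732). For the distal share r was 0.246 (p = 0.325) and rho 0.265 (p = 0.285), and r was 0.486 without the 2 farthest (p = 0.0553). Neither relation passed 0.05 after adjustment. List length also differed between groups, from a mean of 42620 at 6 h to 56084 at 72 h, so the shares were also computed from the 33354 highest-scoring peaks of each list. Differences between groups then made up 0.506 of the variance of the distal share (permutation p = 0.0994, adjusted 0.199) and 0.223 of that of the centromere-near share (p = 0.644). MI minus sham was then -0.0815 percentage points for the centromere-near share (exact permutation p = 0.0809, adjusted 0.162).

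Few end regions were gained (a peak in 3 of 3 libraries after MI and 0 of 3 sham) or lost (the reverse). At 10 min 9 of 4249 were gained (0.212%, against 0.218% of all regions) and 17 lost (0.400%, against 0.627%). At 1 h 8 were gained (0.188%, against 0.223%) and 13 lost (0.306%, against 0.55%). At 6 h the counts were 7 gained (0.165%, against 0.203%) and 28 lost (0.659%, against 0.707%). At 24 h they were 19 gained (0.447%, against 0.394%) and 22 lost (0.518%, against 0.524%). At 72 h they were 25 gained (0.588%, against 0.724%) and 16 lost (0.377%, against 0.401%). The end shares were below those of all regions, except for gains at 24 h. With lists cut to equal length the share gained or lost was above that of all regions at 4 of 5 times, the largest gap being 1.08% against 0.846% at 24 h. At 72 h it was 0.839% against 0.884%. The 5 comparisons share the same 3 sham libraries.

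Of the regions gained at 72 h, the highest mean score was in Ghr, the growth hormone receptor gene, and the overlapping Gm41254 (chr15:3379152-3380081). Its peaks scored 147, 79.7 and 143 at 72 h. Single libraries at 10 min, 1 h and 24 h carried a peak there too. The region chr1:194789454-194790242 in Plxna2, a semaphorin receptor gene, scored 125, 101 and 95.2 at 72 h. It was present in 3 of 3 libraries at 24 h, 2 of 3 at 1 h and 6 h, and 1 of 3 at 10 min. The region chr4:154648889-154650177 in Gm13110 scored 70.8, 69.9 and 130, and was present in 1 library at 10 min and 1 at 24 h.

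Of the regions lost at 72 h, chr12:4672541-4673637 lies in Itsn2, which encodes an endocytic scaffold protein. It scored 122, 82.9 and 87.2 in sham libraries and was present in 11 of 15 MI libraries, including all of those at 1 h, 6 h and 24 h. The region chr14:124492422-124493458 in Fgf14 scored 89.9, 86.3 and 104 in sham and was present in 7 of 15 MI libraries. The third, chr3:3016788-3018423, is 131069 bases from n-TKctt9 and scored 80.7, 82.2 and 74.6 in sham. All the sham scores of these 3 regions lay between 74.6 and 122, against a minimum of 50 for a listed peak. The 3 were named for the highest mean sham scores among the 16 lost, so scores above the minimum follow from that choice.

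Over all times together, no end region was gained (at least 12 of 15 MI libraries and 0 of 3 sham, against 0.0378% of all regions). There were 8 lost (3 of 3 sham and at most 3 of 15 MI), 0.188% against 0.255% of all regions. Near centromeres 7 were lost (0.294% of regions there) and at distal ends 1 (0.0536%), against 0.257% of interior regions. The first lost region, chr11:4013234-4013834, is 10212 bases from Gm11954. It scored 68.7, 51.1 and 62.4 in sham and was present in 1 MI library. The region chr8:128743477-128744120 in LOC108167564 scored 81.9, 116 and 88.3 in sham, and chr17:3190409-3191341 in Scaf8, which encodes a protein that binds RNA polymerase II, scored 62.4, 68.7 and 63.1. Both were present in 2 MI libraries.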

How the data were processed

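MeDIP-seq peak lists of 18 mouse libraries were used, 1 list per library. The labels' protocol describes sheared DNA, immunoprecipitation of methylated fragments and paired-end sequencing. The submitters' processing notes name Bowtie2, MACS2 and mm10; their versions, options and any use of input DNA are not given in the sources used here. Each deposited list holds position and a score per peak; the score is the authors' own, its minimum is 50 in all 18 lists, and its scale is not stated. Read depth is unknown, and the number of peaks limits precision.

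Peaks were merged, assigned to windows and tested with Python 3.11.15, numpy 2.4.6, pandas 2.3.3 and scipy 1.17.1. A peak or region lay in a window only if wholly inside it. Density and score were compared within each library by a sign-flip permutation test (100000 resamples). Group shares were tested by permutation, adjusted by Benjamini-Hochberg. The density and score tests were tested on simulated lists. Gene and promoter positions came from RefSeq GRCm38.p6; Pc was matched by its synonym as Pcx. Ccrl2, Ets2 and Erg lay in the interior and were left out, and some listed genes are not reported here.

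Named regions were the 5 in most libraries and the 5 with the highest mean score at each end, and 3 gained and 3 lost at 72 h and over all MI libraries. The 3 chromosomes highest and lowest in density and the 3 most often touched promoters were named at each end, beside the listed genes. The promoters were ranked without chromosome 18, with 1 window per gene. Members and lists were chosen with earlier results of these data known. Same-numbered replicates of different groups correlated at 0.00263 on average, from -0.0624 to 0.0606 over 45 pairs. The labels do not say that the numbers pair mice, and these correlations cannot exclude it. Alternatives were other windows, a higher score minimum, equal list lengths, midpoints, covered share, genes, trimmed length, and each chromosome or library left out.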

Additional observations from a re-analysis of the deposited data

Results flagged for a closer look

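The distal share of peaks lay on opposite sides of the sham mean at 1 h and 24 h. All 3 libraries at 24 h lay above the sham mean of 1.29% (mean 1.32%, lowest 1.298%), and all 3 at 1 h lay below it (mean 1.27%, highest 1.28%). The 24 h and 1 h means differed by 0.0451 percentage points. The sham libraries themselves ran from 1.281% to 1.302% and overlapped both groups. This difference was not tested, and the test across all 6 groups did not pass its threshold (permutation p = 0.532).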

How the results depend on the processing

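Of 378 alternative values, 321 kept their direction and side of the threshold, or stayed within the set range. The distal results depended on the window and the score minimum. With a window of 5 Mb the log2 distal density ratio was 0.19 (fold 1.14), the distal score difference -0.755 and the distal MI minus sham difference -0.0244 percentage points. With a score of at least 100 the log2 distal density ratio was 0.024 (permutation p = 0.186). With equal numbers of top-scoring peaks distal MI minus sham was -0.00839, centromere-near MI minus sham -0.0815 and the variance between groups 0.506 for the distal share. With a score of at least 100 that variance was 0.494 for the centromere-near share (permutation p = 0.0977, adjusted 0.195). With each library left out, centromere-near MI minus sham lay between -0.0662 and 0.0359 percentage points. The distal and centromere-near recurrence was 31.1% and 32.3% with a window of 1 Mb, 22.3% and 24.3% with a score of at least 100, and 21.4% and 24.2% when 50% of a region had to be covered. The counts of end regions gained or lost, from the earliest time to the latest, were 26, 21, 35, 41 and 41. They were 11, 8, 15, 20 and 21 with 1 Mb, 108, 87, 106, 118 and 145 with 5 Mb, and 9, 8, 10, 7 and 9 with a score of at least 100. As shares of end regions these ran from 0.408% to 1.07%, 0.716% to 1.19% and 0.515% to 0.735%, where all regions gave 0.773% to 1.13% for both windows and 0.610% to 0.722% for the score. With each replicate left out they were 68 to 89, 71 to 84, 77 to 127, 76 to 108 and 81 to 125, since the rule then asks for 2 of 2 libraries in 1 group. Other causes were not tested.

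With the replicate number as a block, the share of variance between groups was 0.284 for distal and 0.157 for centromere-near peaks (permutation p = 0.565 and 0.874), and no call changed.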

Other observations

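Peaks touched 5 of 25 microRNA hairpins in the distal windows (20%) and 5 of 18 in the centromere-near windows (27.8%), against 154 of 876 in the interior (17.6%). Mir7658 on chromosome 4 was touched in 18 libraries and Mir7006 on chromosome 2 in 17. Mir6986 and Mir6985, both on chromosome 19, were touched in 14 and 9. The remaining 6 were touched in 1 or 2 libraries each, among them Mir292, Mir292b and Mir291b on chromosome 7. These hairpins were chosen after their values were seen.

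Across 19 chromosomes, distal density went with the number of protein-coding genes in the window (r = 0.626, rho = 0.736) more than with interior density of the same chromosome (r = 0.133, rho = 0.119). For centromere-near density the values were r = 0.435 and rho = 0.606 with genes, and r = 0.371 and rho = 0.526 with interior density. The points share the same 18 libraries, and the values are a description.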
